A study of Mus musculus with 92 samples.

Results

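The annexins are a family of calcium-dependent, membrane-binding proteins, and the 10 members described here are Anxa1, Anxa2, Anxa3, Anxa4, Anxa5, Anxa6, Anxa7, Anxa8, Anxa11 and Anxa13. They were taken by gene name from the count tables, 10 of the 54532 genes listed there. The libraries come from mouse small intestine, where Eif4g2, which codes for a translation initiation factor, had been floxed (flanked by loxP sites) and was deleted by the drug-dependent recombinase CreER. In the tissue groups every mouse carried CreER and received tamoxifen, so the heterozygous mice, Eif4g2(flox/+), had lost up to 1 copy and serve as controls for the homozygous mice, Eif4g2(flox/flox). Rosa26(CreER) mice, in which the recombinase is made in all cell types, were sampled on day 9 and gave 5 heterozygous and 4 homozygous crypt libraries and 5 villus libraries of each genotype. Vil1(CreER) mice, in which it is made in intestinal epithelium, were sampled at 3 months and gave 4 heterozygous and 3 homozygous crypt libraries and 4 heterozygous and 6 homozygous villus libraries. All cultures also carried Rosa26(CreER). A first set of organoids from 3 flox/flox lines received DMSO or 0.5 µM 4-hydroxytamoxifen (4-OHT, which activates CreER) for 24 h and was collected on day 6. A second set, all given 4-OHT and collected on day 6, held 4 flox/flox, 4 flox/+ and 4 CreER-only organoid lines with wild-type Eif4g2. Fetal intestinal spheroids, cultures of immature gut epithelium, came from 6 flox/flox and 5 flox/+ lines, each with DMSO and with 4-OHT. The last set is 4 organoid lines grown for 4 days with DMSO or with 3, 5 or 10 µM A-485, a small molecule that blocks the acetyltransferase activity of p300 and CBP. Of these lines 1 is Eif4g2(+/+) and 3 are flox/flox by their labels, none of them was given 4-OHT, and 1 flox/flox line also belongs to the first organoid set.

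An annexin core folds into repeated domains that bind calcium and, through it, the negatively charged lipids of membranes, while a short and variable N-terminal tail carries the partners of each member. Anxa2 binds S100a10 and helps to assemble plasminogen activation and the actin-linked membrane cortex. Anxa1 is known for resolving inflammation through formyl peptide receptors, and Anxa5 for binding phosphatidylserine on dying cells. Several members take part in the repair of torn membranes and in vesicle traffic. In the gut, Anxa13 is the member most restricted to epithelium, and Anxa4 is an abundant member of polarized epithelial cells.

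RefSeq windows of the GRCm38.p6 build were at hand for 7 of the 10 members (Anxa1, Anxa2, Anxa4, Anxa5, Anxa7, Anxa8 and Anxa11). Upstream sequence is shown for 3 of these. Each window is the 250 bases before the RefSeq start, and the letters printed stop short of the earlier of the RefSeq and GENCODE starts. Anxa2 and Anxa5 were higher after A-485 and Anxa4 was lower. The Anxa2 stretch is chr9:69453433-69453619 on the plus strand, Anxa5 is chr3:36475895-36476137 on the minus strand and Anxa4 is chr6:86793585-86793834 on the minus strand. Capitals mark a match to the AP-1 motif TGANTCA, where N is any base.
Anxa2: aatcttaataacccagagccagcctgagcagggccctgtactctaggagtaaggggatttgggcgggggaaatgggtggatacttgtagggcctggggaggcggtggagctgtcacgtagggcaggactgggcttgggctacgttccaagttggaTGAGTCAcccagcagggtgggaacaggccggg
Anxa5: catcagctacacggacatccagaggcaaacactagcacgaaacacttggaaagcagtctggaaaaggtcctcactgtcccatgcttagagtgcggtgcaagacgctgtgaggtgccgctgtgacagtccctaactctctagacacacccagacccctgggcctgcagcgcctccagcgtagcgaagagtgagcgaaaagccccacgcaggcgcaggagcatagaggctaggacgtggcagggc
Anxa4: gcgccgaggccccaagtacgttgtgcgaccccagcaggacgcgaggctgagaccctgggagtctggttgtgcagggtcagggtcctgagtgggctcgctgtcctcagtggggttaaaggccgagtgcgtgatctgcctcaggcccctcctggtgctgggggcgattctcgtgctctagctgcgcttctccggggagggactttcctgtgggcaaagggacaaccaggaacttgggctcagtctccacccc
Both strands of the full 250 bases were searched for that motif, for the TEAD motif GGAATG and for the TATA letters TATAAA, which do not overlap each other. Anxa2 held 1 AP-1 match, present in 6.75% of the 32851 RefSeq windows of this length. It also held 1 TATA match, present in 12.4% of windows, in the bases not printed. Those bases lie past its GENCODE start, inside the annotated gene. Anxa1 held 1 TEAD match, present in 12.6% of windows, and 1 TATA match. The GENCODE start of Anxa1 lies 273 bases upstream of its RefSeq start, so that window is inside the annotated gene. The windows of Anxa4, Anxa5, Anxa7, Anxa8 and Anxa11 held none of the 3. A match is a description of these letters and not evidence of a bound factor.

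Library totals ran from 8652040 to 37611126 counts over the 92 libraries, and mitochondrial genes took 1.81% to 40.3% of them. In the crypts the mitochondrial share moved with genotype, at 6.24% to 12.4% in heterozygous and 13.7% to 25.2% in homozygous Rosa26(CreER) mice and at 17.5% to 30.8% and 30.4% to 40.3% in Vil1(CreER) mice, and its part in the annexin differences was not tested. By the library names in the labels, the libraries of a group come from different animals or lines, while crypts and villi can share an animal and treatments of cultures share lines. Eif4g2 counts were lower wherever both copies were targeted, by log2 changes from -0.99 in Vil1(CreER) crypts to -2.82 in flox/flox spheroids. Some libraries stand apart. Stromal markers summed to 1063 CPM (counts scaled to library size) in heterozygous replicate 3 and 2456 CPM in homozygous replicate 4 of the Rosa26(CreER) crypts, against 50.1 to 720 CPM in the other crypt libraries of these mice. With DMSO, Paneth cell markers summed to over 1000 CPM in flox/flox spheroid lines 1 and 3 and flox/+ lines 4 and 5, and to between 64.5 and 315 CPM in the other spheroid lines. The epithelial label was checked with 6 pan-epithelial markers, which summed to between 3306 and 16326 CPM in every library, with none of the 6 at 0. In bulk RNA, fewer cells that make a transcript and less transcript per cell cannot be told apart.

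Anxa2, Anxa4 and Anxa13 made up most annexin RNA in nearly all groups, and which of them led differed between groups. Levels are CPM after TMM scaling, a correction for library composition, done separately in each of the 4 tables, so differences between tables are not tested. Compared per kilobase of transcript, Anxa2 and Anxa4 were among the top 3 members in 21 of 21 groups, and Anxa13 in 20. Anxa13 ranked first in 10 groups, Anxa4 in 6 and Anxa2 in 5. The rank of Anxa13 rests on a gene length of 1348 bases, for an entry that the deposited annotation classes as a processed transcript. The lowest member per kilobase was Anxa8 in 11 groups, Anxa6 in 9 and Anxa3 in 1. Together Anxa2, Anxa4 and Anxa13 held 44.8% (a flox/+ spheroid library with 4-OHT) to 95.8% (a homozygous villus library of the Vil1(CreER) mice) of all annexin CPM. In flox/+ spheroids with 4-OHT, Anxa1 and Anxa3 had means of 472 and 345 CPM.

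**Figure D1:**
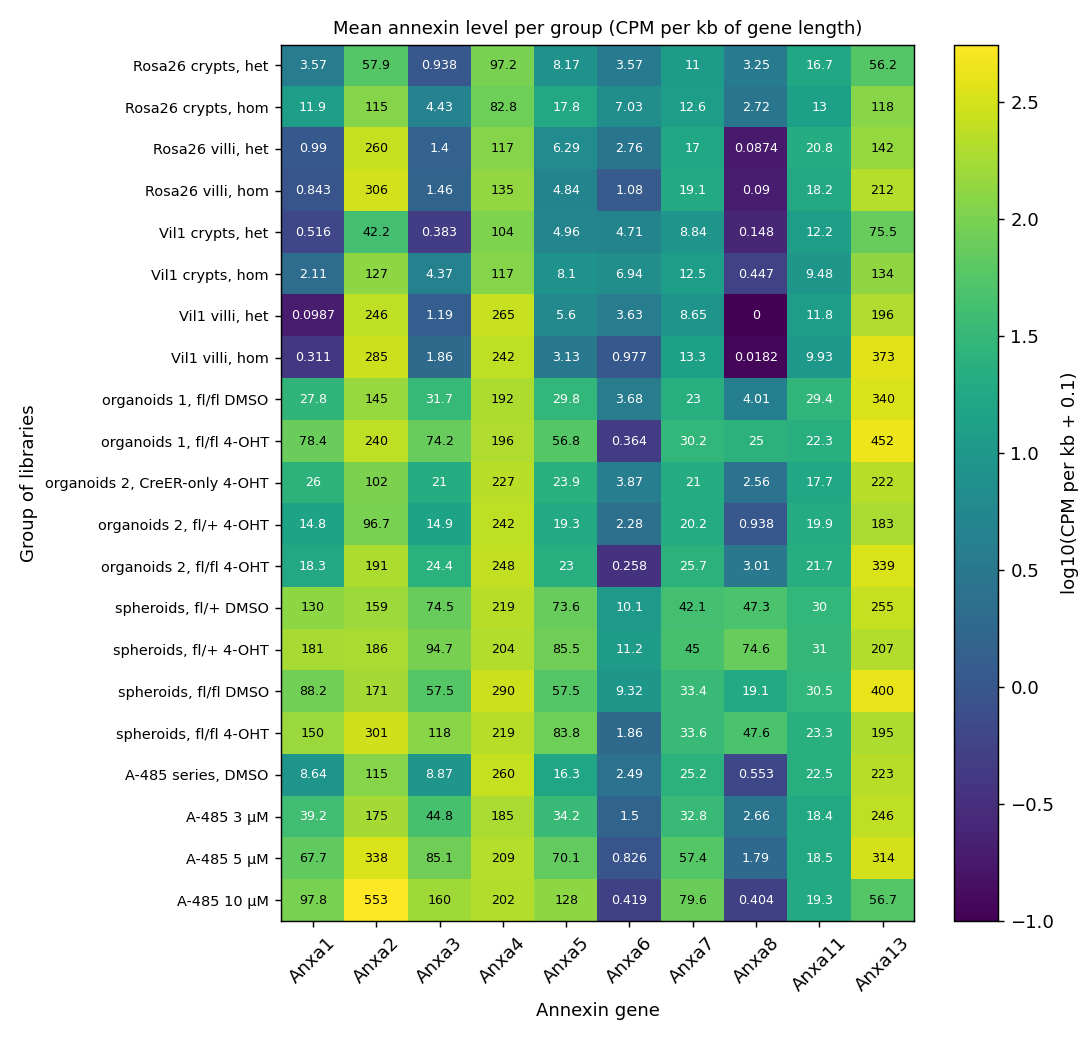
Mean level of each annexin in each of the 21 groups, members in columns and groups in rows (het and hom are heterozygous and homozygous, organoids 1 and 2 the first and second organoid sets). Each cell prints the mean CPM per kilobase of gene length, and its colour is log10 of that value after adding 0.1. Anxa2, Anxa4 and Anxa13 form the bright columns and Anxa6 and Anxa8 the dark ones, with Anxa8 at its brightest in spheroids.

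The members differ in how far they range. Anxa8, a member best known from stratified epithelium, had 0 reads in all 4 heterozygous villus libraries of the Vil1(CreER) mice and a mean of 140 CPM in flox/+ spheroids with 4-OHT. Anxa1 ran from a mean of 0.257 CPM in the same villi to 472 CPM in the same spheroids. Anxa3 ran from 1.40 CPM in heterozygous Vil1(CreER) crypts to 584 CPM with 10 µM A-485. By contrast Anxa11, which tethers RNA granules to lysosomes, stayed between group means of 39.2 and 128 CPM, and Anxa4 between 384 and 1349 CPM. Over the 24 comparisons, a member was called when edgeR's quasi-likelihood adjusted p was under 0.05. Anxa2 was called in 15 (14 higher, 1 lower), Anxa3 in 13 (11 and 2), Anxa13 in 13 (10 and 3) and Anxa6 in 13 (2 and 11). Anxa7 was called in 12 (all higher), Anxa5 in 11 (9 and 2), Anxa1 in 9 (7 and 2) and Anxa11 in 6 (3 and 3). Anxa4 and Anxa8 were called in 5 each (2 and 3, 4 and 1). Between 0.0% and 77.1% of the genes tested were called in a comparison, and comparisons share libraries. Some lower calls, the 1 of Anxa2 among them, are differences of genotype effects between villi and crypts and not lower levels.

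The Rosa26(CreER) crypts address the loss of Eif4g2 where stem and Paneth cells reside. Anxa2, Anxa3 and Anxa13 were higher and Anxa11 lower in homozygous than in heterozygous crypts. That is 4 of 10 members called, 3 higher and 1 lower, where 20.2% of the 15846 genes tested were called, 8.63% higher and 11.6% lower. The members' median log2 change was 1.06, and that of all genes tested 0.04. The opposing direction of Anxa11 was the smallest change of the 4.

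Anxa2 in heterozygous crypts had 252, 170, 206, 274 and 179 CPM, and in homozygous crypts 573, 518, 394 and 238 CPM. All but homozygous replicate 5 lay above every heterozygous library. The difference was 2.09-fold (log2 1.07 ± 0.27 SE, edgeR adjusted p = 0.0252). Anxa3, a member with roles in membrane traffic, had 2.83, 3.32, 5.43, 3.94 and 1.58 CPM against 13.8, 24.5, 23.1 and 3.17 CPM. Again homozygous replicate 5 was the exception, inside the heterozygous range. The log2 difference was 2.32 ± 0.57 SE (edgeR adjusted p = 0.0214).

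Anxa13 separated the crypt genotypes without overlap, at 72.7, 65.1, 63.9, 91.4 and 85.9 CPM in heterozygous and 202, 146, 119 and 168 CPM in homozygous libraries. It was 2.18-fold higher in the latter (log2 1.12 ± 0.17 SE, edgeR adjusted p = 0.00233). Anxa11 fell by 0.31 ± 0.10 SE on the log2 scale (edgeR adjusted p = 0.0494), with 65.9 to 75.7 CPM in heterozygous and 47.0 to 62.9 CPM in homozygous crypts. The 2 ranges did not overlap.

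Anxa1, Anxa5 and Anxa6 had higher means in homozygous crypts but did not pass the test. Anxa1 had 6.27, 6.86, 22.4, 9.45 and 1.56 CPM against 19.5, 43.2, 58.6 and 2.58 CPM (log2 1.80 ± 0.87 SE, edgeR adjusted p = 0.167). Anxa5 had a log2 difference of 1.20 ± 0.47 SE (edgeR adjusted p = 0.0977) and Anxa6, the member with a duplicated core, 1.06 ± 0.56 SE (edgeR adjusted p = 0.205). Homozygous replicate 5 was the lowest homozygous library for all 3. It stood apart in markers too, with 248 CPM of immune markers against 1805 to 2713 CPM in the other homozygous crypts, 56.3 against 714 to 2456 CPM of stromal markers, and 9731 against 2180 to 5425 CPM of Paneth markers. Without it edgeR called Anxa1 (log2 2.19, adjusted p = 0.0409), Anxa5 (1.52, 0.0074), Anxa6 (1.42, 0.00962) and Anxa7 (0.31, 0.0272), and Anxa11 was not (-0.30, 0.0719). Anxa4, Anxa7 and Anxa8 were not called with all libraries either, at log2 differences of -0.17, 0.25 and -0.20.

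The crypt libraries also differed in composition. Stromal markers (12 genes, none at 0) summed to 50.1 to 1063 CPM in heterozygous and 56.3 to 2456 CPM in homozygous crypts. Leaving out the 2 libraries above 1000 CPM kept the sizes but ended the edgeR calls of Anxa2 (log2 1.06, adjusted p = 0.091), Anxa3 (2.29, 0.0714) and Anxa11 (-0.28, 0.159). Anxa13 alone stayed called. The edgeR call of Anxa2 was also lost without heterozygous replicate 2, 3 or 5 or homozygous replicate 3 (adjusted p up to 0.0643), that of Anxa3 without heterozygous replicate 1 or 2 or homozygous replicate 3 or 4 (up to 0.0552), and that of Anxa11 without any library but homozygous replicate 1 (up to 0.11). Sex also overlapped with genotype in these mice, and a covariate for Y-linked reads left Anxa11 at -0.05 (edgeR adjusted p = 0.764) and Anxa3 at 2.09 (edgeR adjusted p = 0.129). Crypt stem cell markers summed to 3985 to 6771 CPM in heterozygous and 261 to 994 CPM in homozygous crypts, and Paneth markers to 15712 to 21496 and 2180 to 9731 CPM, and their part in the annexin differences was not tested.

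Vil1(CreER) crypts at 3 months gave a similar set with closer replicates. Here 5 of 10 members were called, all of them higher in homozygous crypts (Anxa2, Anxa3, Anxa5, Anxa7 and Anxa13), where 29.3% of 16954 genes were called, 11.6% higher and 17.7% lower. The members' median log2 change was 0.77, and that of all genes 0.01. Stromal markers were low in both genotypes, at 20.8 to 61.1 and 33.5 to 69.2 CPM. Stem cell markers summed to 5036 to 5637 CPM in heterozygous and 383 to 627 CPM in homozygous crypts, and Paneth markers to 3065 to 6843 and 362 to 917 CPM. The part of these cells in the annexin differences was not tested.

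Anxa3 had 1.26, 1.83, 1.16 and 1.34 CPM in heterozygous and 25.2, 9.65 and 12.9 CPM in homozygous Vil1(CreER) crypts. The groups lay far apart, with an 11.4-fold difference (log2 3.51 ± 0.35 SE, edgeR adjusted p = 0.000429). For Anxa2 the libraries had 170, 148, 163 and 148 CPM against 538, 379 and 506 CPM. Every homozygous library was more than any heterozygous one, and the difference was 3.02-fold (log2 1.59 ± 0.13 SE, edgeR adjusted p = 0.000136). S100a10, the Anxa2 partner, was higher by 0.78 ± 0.10 SE on the log2 scale (edgeR adjusted p = 0.000939).

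Anxa13 rose from 97.1, 84.5, 117 and 108 CPM to 201, 153 and 190 CPM in these crypts (log2 0.84 ± 0.13 SE, edgeR adjusted p = 0.00271). Anxa7, which promotes membrane fusion in vitro, rose by 0.51 ± 0.08 SE (edgeR adjusted p = 0.00322) and Anxa5 by 0.71 ± 0.19 SE (adjusted p = 0.0217). Neither overlapped between genotypes. The edgeR call of Anxa5 was lost without heterozygous replicate 1 or homozygous replicate 1 or 2 (adjusted p up to 0.0874). Anxa1 did not overlap either, with 1.5, 2.90, 0.669 and 0.321 CPM against 9.88, 3.17 and 3.43 CPM, but missed the threshold (log2 2.02 ± 0.77 SE, edgeR adjusted p = 0.0925; DESeq2 adjusted p = 0.0106; edgeR without heterozygous replicate 2, log2 2.73, adjusted p = 0.0275). Anxa11 was at the edge of it, lower by 0.36 ± 0.12 SE (edgeR adjusted p = 0.0501), and was called without heterozygous replicate 2 (edgeR adjusted p = 0.0145). Anxa4 (log2 0.17), Anxa6 (0.57 ± 0.50 SE, edgeR adjusted p = 0.449) and Anxa8 (1.56 ± 0.94 SE, 0.261) were not called.

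In villi, Anxa6 was called lower and Anxa13 higher in homozygous mice under both drivers. Rosa26(CreER) villi had 2 of 9 tested members called, Anxa13 higher and Anxa6 lower, where 33.2% of 13579 genes were called, 15.0% higher and 18.2% lower. Vil1(CreER) villi had 4 of 8 called, Anxa7 and Anxa13 higher and Anxa5 and Anxa6 lower, where 42.5% of 15107 genes were called, 20.9% higher and 21.6% lower. The share of members called in Rosa26(CreER) villi was under that of all genes. Anxa8 was too low for the test in both sets of villi, as was Anxa1 in those of the Vil1(CreER) mice.

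Anxa6 had 4.8, 5.47, 16.9, 6.55 and 6.68 CPM in heterozygous and 2.10, 2.41, 3.56, 3.56 and 4.22 CPM in homozygous Rosa26(CreER) villi. The genotypes did not overlap, and the decrease was 2.64-fold (log2 -1.40 ± 0.37 SE, edgeR adjusted p = 0.0132). In Vil1(CreER) villi it had 12.2, 10.1, 10.3 and 9.99 CPM in heterozygous libraries, and a lowest of 1.41, a median of 2.04 and a highest of 7.16 CPM in the 6 homozygous ones. Again no library crossed over, and Anxa6 was 3.81-fold lower (log2 -1.93 ± 0.39 SE, edgeR adjusted p = 0.00172). Markers of immune cells (15 genes, none at 0) were lower alongside, at 3960 to 7282 CPM in heterozygous and 1128 to 3550 CPM in homozygous Rosa26(CreER) villi, and 3047 to 5507 against 166 to 1634 CPM in Vil1(CreER) villi. Their part in the Anxa6 and Anxa5 differences was not tested. In the organoids described below the same 15 markers summed to at most 8.68 CPM.

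Anxa13 was higher in the villi of both drivers, by 0.52 ± 0.16 SE (edgeR adjusted p = 0.0239) in Rosa26(CreER) and 0.91 ± 0.16 SE (adjusted p = 0.000696) in Vil1(CreER) mice. In the latter, heterozygous libraries had 289, 352, 198 and 219 CPM and homozygous ones a lowest of 431, a median of 495 and a highest of 601 CPM, with no overlap. The Rosa26(CreER) value lost its call with the covariate for Y-linked reads (log2 0.43, edgeR adjusted p = 0.161) and without heterozygous replicate 2 or 5 (edgeR adjusted p = 0.0522 and 0.0548). Anxa7 rose in Vil1(CreER) villi (log2 0.61 ± 0.13 SE, edgeR adjusted p = 0.00244) and Anxa5 fell (log2 -0.86 ± 0.26 SE, adjusted p = 0.0174). Anxa2 did not pass in either set of villi, at log2 differences of 0.18 and 0.19 (edgeR adjusted p = 0.298 and 0.338). Anxa3 was not called in Vil1(CreER) villi (log2 0.61 ± 0.29 SE, edgeR adjusted p = 0.111).

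**Figure D2:**
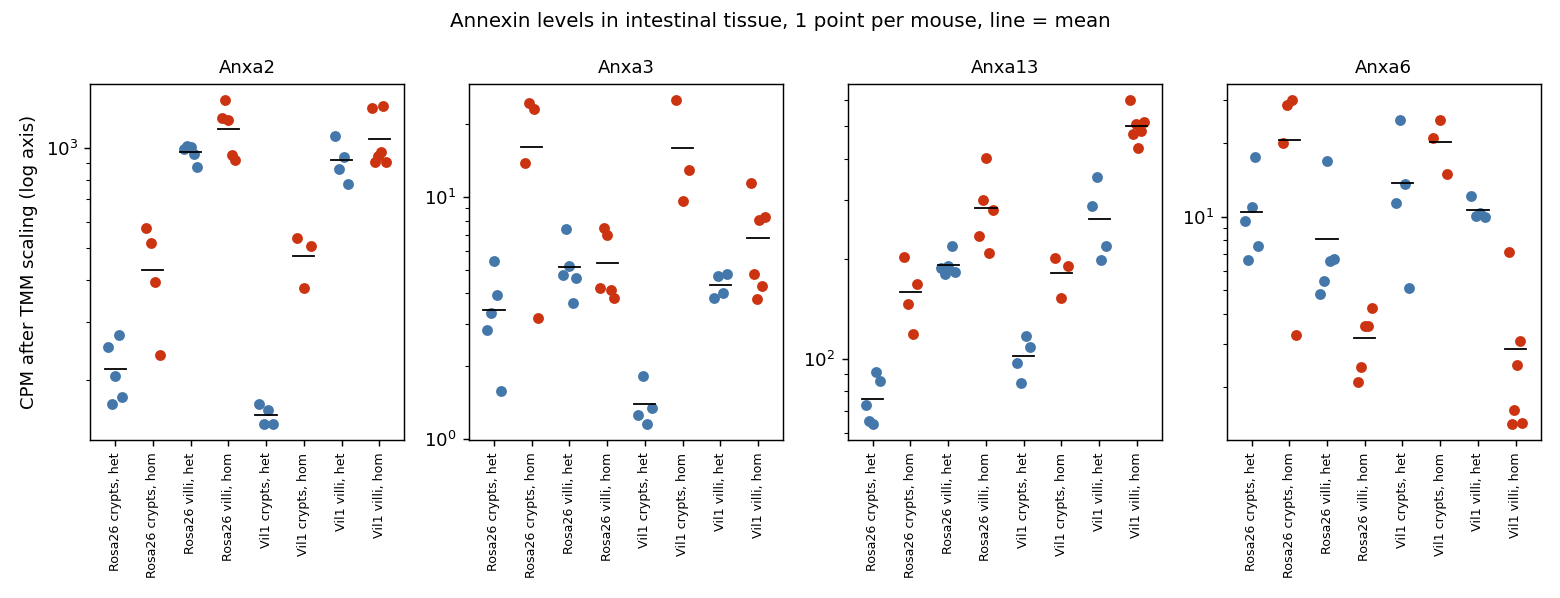
Levels of annexins in crypts and villi of Rosa26(CreER) and Vil1(CreER) mice, in CPM after TMM scaling on a log axis, 1 point per mouse with a line at each group's mean, heterozygous (het) in blue and homozygous (hom) in red, for Anxa2, Anxa3, Anxa13 and Anxa6. The first 3 lie higher in most homozygous crypt libraries, and Anxa6 lies lower in all homozygous villus libraries.

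Along the crypt-villus axis of heterozygous mice, Anxa2 and Anxa13 were higher in villi under both drivers. In Rosa26(CreER) mice 7 of 10 members differed between villi and crypts (5 higher in villi, 2 lower), where 77.1% of 14793 genes did (36.4% higher, 40.6% lower), so the members' share was close to that of all genes. In Vil1(CreER) mice 5 of 9 differed (4 higher, 1 lower), where 67.9% of 15757 genes did (32.7% higher, 35.2% lower). Anxa2 was 4.53-fold higher in Rosa26(CreER) villi (log2 2.18 ± 0.14 SE, edgeR adjusted p = 3.09e-08) and 5.62-fold in Vil1(CreER) villi (2.49 ± 0.14 SE, 2.53e-07). Its group means were 216 CPM in crypts and 970 CPM in villi of the former, and 157 and 917 CPM in the latter. Anxa13 was higher by 1.35 ± 0.11 SE (edgeR adjusted p = 2.18e-07) and 1.33 ± 0.19 SE (adjusted p = 9.63e-05).

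Anxa1 and Anxa8 ran the other way. Anxa8 was lower in Rosa26(CreER) villi, at 0 to 9 reads per library, than in crypts, at 46 to 687 reads (log2 -5.34 ± 1.07 SE, edgeR adjusted p = 0.000719). Anxa1 was lower in villi by 1.86 ± 0.71 SE (edgeR adjusted p = 0.0311) and 2.46 ± 0.77 SE (adjusted p = 0.0158) on the log2 scale, but lost both calls when each animal's crypts and villi were paired (edgeR adjusted p = 0.0632 and 0.0667). Anxa4 and Anxa3 were higher in Vil1(CreER) villi, by 1.30 ± 0.16 and 1.58 ± 0.25 SE (edgeR adjusted p = 3.34e-05 and 0.000209). In Rosa26(CreER) villi, Anxa4, Anxa7 and Anxa11 were higher by 0.28, 0.63 and 0.33 (edgeR adjusted p = 0.0223, 5.92e-05 and 0.00111). Anxa3 was not called there (log2 0.59 ± 0.30 SE, edgeR adjusted p = 0.0941). The call of Anxa4 was lost in 6 of the 10 fits that left out a library (edgeR adjusted p up to 0.108), without heterozygous villus replicate 1, 2 or 3 or crypt replicate 2, 3 or 4. The call of Anxa1 in Rosa26(CreER) mice was lost without villus replicate 4 or crypt replicate 3, the latter a library with a stromal marker sum over 1000 CPM (edgeR log2 -1.21, adjusted p = 0.101).

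The effect of genotype itself differed between villi and crypts for some members, and each called difference was negative, that is a smaller or more negative homozygous effect in villi than in crypts. In Rosa26(CreER) mice 2 of 10 members had such a difference, where 11.5% of 16495 genes did (6.68% higher, 4.86% lower). These were Anxa3 (log2 -2.19 ± 0.60 SE, edgeR adjusted p = 0.0277) and Anxa6 (-2.32 ± 0.67 SE, adjusted p = 0.0355). With animals as a block edgeR called neither (adjusted p = 0.0606 and 0.162), nor without homozygous crypt replicate 3 (0.064 and 0.0726) or 4 (0.066 and 0.0784). The edgeR call of Anxa6 was lost in 11 of 19 fits that left out a library, and that of Anxa3 in 3 (adjusted p up to 0.0784 and 0.066). Anxa1 (-1.95 ± 1.09 SE, edgeR adjusted p = 0.254), Anxa2 (-0.76 ± 0.29 SE, 0.0912) and Anxa5 (-1.50 ± 0.56 SE, 0.0865) were not called. In Vil1(CreER) mice 4 of 10 did, where 15.5% of 17821 genes did (9.38% higher, 6.14% lower). These were Anxa2 (-1.38 ± 0.23 SE, edgeR adjusted p = 0.00183), Anxa3 (-2.86 ± 0.47 SE, 0.0016), Anxa5 (-1.55 ± 0.37 SE, 0.0114) and Anxa6 (-2.46 ± 0.67 SE, 0.0229). With the block Anxa6 was just outside (edgeR adjusted p = 0.0522), as it was without homozygous crypt replicate 2 (edgeR adjusted p = 0.0598). Anxa8 was not called (1.6 ± 1.73 SE, edgeR adjusted p = 0.567).

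In organoids, which are grown from epithelium alone, the deletion of Eif4g2 came with a large decrease of Anxa6 and an increase of Anxa2. The first set held flox/flox lines only, so the deletion and 4-OHT itself cannot be told apart in it. Every line of the second set had 4-OHT. In the first set 9 of 10 members were called, 7 higher and 2 lower with 4-OHT, where 35.4% of 15297 genes were called, 18.2% higher and 17.2% lower. The members' median log2 change was 0.56, and that of all genes 0.03. In the second set flox/flox against flox/+ gave 4 called (3 higher, 1 lower), where 46.8% of 14220 genes were called (22.6% higher, 24.3% lower), and flox/flox against CreER-only gave 4 (3 higher, 1 lower), where 45.3% were (21.9% higher, 23.5% lower). The last pair of comparisons shares its flox/flox libraries, and in both the members' share was close to that of all genes.

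Anxa6 had 12.7, 10.4 and 9.19 CPM in the first set with DMSO and 1.22, 0.985 and 0.991 CPM in the same lines with 4-OHT. Every line fell, by 10.1-fold (log2 -3.34 ± 0.21 SE, edgeR adjusted p = 0.000205), to 30 to 41 reads per library. In the second set it had 10.4, 14.6, 9.84 and 10.5 CPM in CreER-only, 6.13, 6.54, 7.54 and 6.50 CPM in flox/+ and 0.804, 0.370, 1.01 and 0.841 CPM in flox/flox lines. The 3 genotypes did not overlap. Flox/flox lines were 8.77-fold below flox/+ (log2 -3.13 ± 0.23 SE, edgeR adjusted p = 8.48e-08) and 14.8-fold below CreER-only lines (log2 -3.89 ± 0.23 SE, adjusted p = 8.42e-09).

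The flox/+ organoids address the loss of 1 copy. Their values for Anxa6 lay below CreER-only lines without passing edgeR's test. The flox/+ lines were lower than CreER-only lines by 0.76 ± 0.18 SE on the log2 scale, with edgeR's adjusted p at 0.136, DESeq2's at 0.00412 and edgeR's without the filter on low counts at 0.0344. None of 10 members was called in that comparison with edgeR, where 0.113% of genes were called and 1481 genes had an unadjusted p under 0.05. Anxa1 had lower values in flox/+ lines (40.4, 39.8, 44.1 and 29.7 CPM) than in CreER-only lines (87.1, 79.7, 57.6 and 46.5 CPM). These did not overlap, but the test was not passed (log2 -0.81 ± 0.46 SE, edgeR adjusted p = 0.576). Anxa8 was not called either (log2 -1.44 ± 0.68 SE, edgeR adjusted p = 0.506).

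Immune markers could be checked in these cultures. In every organoid group the 15 immune markers summed to at most 8.68 CPM, and between 8 and 12 of them had 0 reads in all libraries of a group, Cd4, Gzma, Gzmb and Nkg7 among them. The 12 stromal markers summed to 0 to 14.5 CPM. Stem cell markers moved with 4-OHT, at 1367 to 1804 CPM with DMSO and 437 to 460 CPM with 4-OHT in the first set, and Paneth markers at 1802 to 2165 and 207 to 446 CPM. In the second set the stem cell markers summed to 1670 to 2515 CPM in flox/flox, 5693 to 7620 CPM in flox/+ and 6073 to 7733 CPM in CreER-only lines. The part of these cell types in the annexin differences was not tested.

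**Figure D3:**
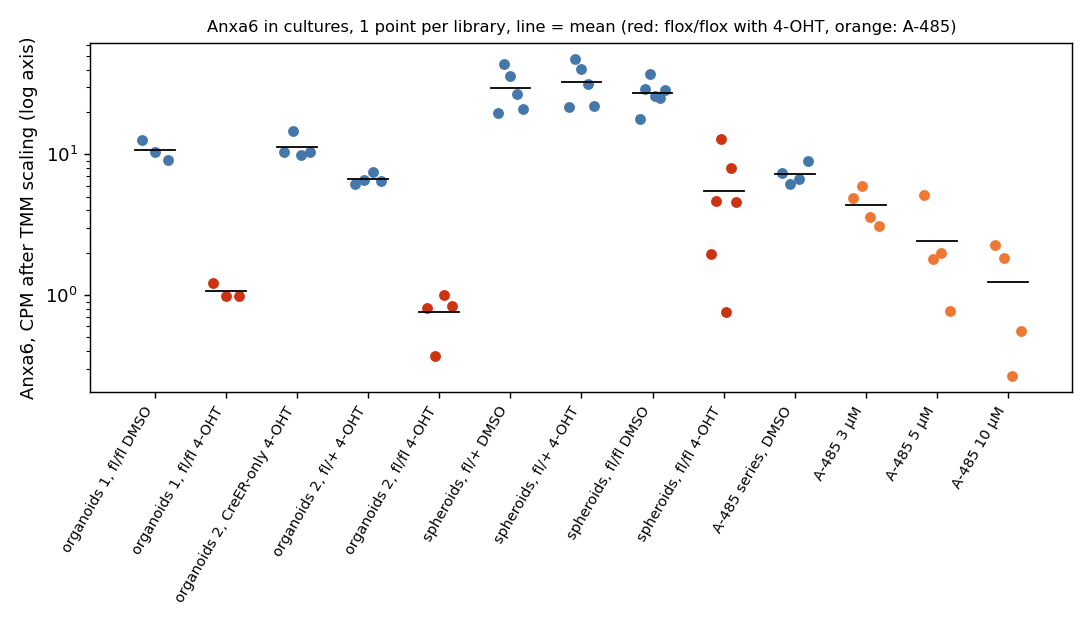
Anxa6 in organoids and spheroids, in CPM after TMM scaling on a log axis, 1 point per library with a line at each group's mean, red for flox/flox with 4-OHT, orange for A-485 and blue for the rest. The flox/flox groups with 4-OHT lie below their controls, and the group means with A-485 descend with dose.

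Anxa2 was higher in every flox/flox organoid line with 4-OHT than in any control library of its set. In the first set it had 565, 559 and 498 CPM with DMSO and 945, 952 and 786 CPM with 4-OHT (log2 0.72 ± 0.11 SE, edgeR adjusted p = 0.00256). In the second set flox/flox lines had 612, 743, 807 and 691 CPM, flox/+ lines 372, 364, 345 and 363 CPM, and CreER-only lines 429, 347, 419 and 326 CPM. The difference was 1.96-fold from flox/+ (log2 0.97 ± 0.09 SE, edgeR adjusted p = 1.05e-06) and 1.87-fold from CreER-only (log2 0.91 ± 0.09 SE, adjusted p = 2.12e-06). The flox/+ and CreER-only lines overlapped (log2 -0.07, edgeR adjusted p = 0.839).

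Anxa1, Anxa3, Anxa5 and Anxa8 rose with 4-OHT in the first organoid set, which had no flox/+ or CreER-only lines. Anxa8 had 8.41, 11.1 and 3.11 CPM with DMSO and 66.6, 46.4 and 27.8 CPM with 4-OHT (log2 2.61 ± 0.48 SE, edgeR adjusted p = 0.00584), without overlap. Anxa1 had 85.7, 86.2 and 45.6 CPM against 278, 198 and 137 CPM (log2 1.49 ± 0.32 SE, edgeR adjusted p = 0.0106). Anxa3 rose by 1.22 ± 0.25 SE (edgeR adjusted p = 0.00865) and Anxa5 by 0.92 ± 0.29 SE (edgeR adjusted p = 0.0465). Without the filter on low counts edgeR no longer called Anxa1, Anxa5 or Anxa8 (adjusted p = 0.0771, 0.187 and 0.057). In the second set these 4 members spread widely among flox/flox lines, as with Anxa1 at 17.6, 27.4, 96.4 and 49.3 CPM. None was called there against flox/+ (log2 0.30, 0.70, 0.25 and 1.68 for Anxa1, Anxa3, Anxa5 and Anxa8; edgeR adjusted p = 0.625, 0.0954, 0.451 and 0.0663). Against CreER-only lines their log2 differences were -0.51, 0.21, -0.05 and 0.24. Without flox/flox line 1 edgeR called Anxa3 and Anxa8 against flox/+ (adjusted p = 0.0342 and 0.0455), and without line 2 Anxa8 (0.0327). Anxa1 was called lower than in CreER-only lines without line 3 (log2 -1.10, edgeR adjusted p = 0.0335). The difference between the 2 sets was not tested.

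Anxa7 and Anxa13 made smaller rises. Anxa7 was higher by 0.38 ± 0.12 SE (edgeR adjusted p = 0.042) in the first set, 0.34 ± 0.08 SE (0.00306) against flox/+ and 0.29 ± 0.08 SE (0.00848) against CreER-only lines. Anxa13 was higher by 0.40 ± 0.09 SE (edgeR adjusted p = 0.0106) in the first set and 0.88 ± 0.28 SE (0.0255) against flox/+, and at 0.61 ± 0.28 SE (0.102) against CreER-only lines it was not called. Anxa11 went both ways, lower by 0.40 ± 0.10 SE in the first set (edgeR adjusted p = 0.0179) and higher by 0.30 ± 0.08 SE against CreER-only lines (adjusted p = 0.00971). Anxa4 was not called in any of the 3, with log2 differences of 0.03, 0.03 and 0.12. In the first set Anxa5 and Anxa7 lost their calls in 5 of 6 fits that left out a library, and with DESeq2's size factors (edgeR adjusted p = 0.0543 and 0.0608). Anxa11 was not called in a fit over all groups of its table (edgeR adjusted p = 0.295). Anxa13 lost its call against flox/+ without flox/flox or flox/+ line 3 or 4 (edgeR adjusted p up to 0.0758).

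Fetal spheroids had more Anxa1, Anxa3, Anxa5, Anxa6 and Anxa8 than organoids of the same genotype and treatment. Among flox/+ cultures with 4-OHT, 8 of 10 members were called, all higher in spheroids, where 47.9% of 14522 genes were called, 25.1% higher and 22.8% lower. Among flox/flox cultures with 4-OHT 5 of 10 were, all higher, where 24.6% of 13796 genes were called, 15.2% higher and 9.45% lower. The members' median log2 differences were 1.61 and 1.24, against -0.01 and 0.01 for all genes.

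Anxa8 had 2.21, 1.51, 1.57 and 1.77 CPM in flox/+ organoids and 314, 128, 133, 98.5 and 28.3 CPM in flox/+ spheroids. Even the lowest spheroid line was well above the organoids, and the difference was 76.7-fold (log2 6.26 ± 0.71 SE, edgeR adjusted p = 0.000203). Anxa1 had 774, 548, 621, 308 and 108 CPM in these spheroids, 11.9-fold above organoids (log2 3.57 ± 0.53 SE, edgeR adjusted p = 0.000679). Anxa6 had 21.7, 47.6, 40.2, 31.7 and 22.2 CPM, 4.74-fold above organoids (log2 2.25 ± 0.26 SE, edgeR adjusted p = 0.000165). Anxa3, Anxa5, Anxa7, Anxa2 and Anxa11 were higher by 2.62, 2.10, 1.11, 0.90 and 0.59 on the log2 scale (edgeR adjusted p = 0.000345, 0.00124, 0.00311, 0.00749 and 0.00418). Without the lines high in Paneth markers edgeR also called Anxa4, lower in spheroids (log2 -0.41, adjusted p = 0.0013).

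In flox/flox cultures the spheroid excess was 3.95 ± 0.63 SE for Anxa8 (edgeR adjusted p = 0.00163), 3.01 ± 0.52 SE for Anxa1 (0.00254), 2.25 ± 0.38 SE for Anxa3 (0.00191), 1.84 ± 0.32 SE for Anxa5 (0.00247) and 2.81 ± 0.73 SE for Anxa6 (0.0176). Anxa4, the member that leads in many epithelial groups, was not called in either genotype (log2 -0.29 and -0.20, edgeR adjusted p = 0.0908 and 0.675). In flox/flox cultures Anxa2 (log2 0.63 ± 0.25 SE, edgeR adjusted p = 0.0922) and Anxa13 (-0.82 ± 0.49 SE, 0.248) were not called. Without the lines high in Paneth markers, flox/flox spheroids gave 8 calls in place of 5, and the share of all genes called in that fit is not given here. The calls gained were Anxa7 (log2 0.47, edgeR adjusted p = 0.0341), higher, and Anxa4 (-0.70, 0.0149) and Anxa13 (-1.73, 0.00106), lower. Without flox/flox organoid line 1 or 2 Anxa6 was not called (edgeR adjusted p = 0.0531 and 0.0602).

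Within flox/flox spheroids, the fit without line as a block called Anxa6, Anxa11 and Anxa13 lower and Anxa2 higher with 4-OHT. That is 4 of 10 members called, 1 higher and 3 lower, where 19.1% of 15032 genes were called, 9.01% higher and 10.0% lower. The same lines had both treatments, and the calls with line as a block, which differ and leave out Anxa13, are given below. Anxa6 had a lowest of 17.8, a median of 27.3 and a highest of 37.2 CPM in 6 lines with DMSO, and 0.760, 4.6 and 12.8 CPM with 4-OHT. No library of the treated lines reached the control range, and the decrease was 5.01-fold (log2 -2.32 ± 0.44 SE, edgeR adjusted p = 0.00112). Anxa2 had 492, 659 and 742 CPM (lowest, median and highest) with DMSO and 499, 1208 and 1479 CPM with 4-OHT. The lowest treated library lay inside the control range, and the difference was 0.81 ± 0.25 SE (edgeR adjusted p = 0.0264). In fits that left out 1 of the 12 libraries, edgeR's call was lost in 4 for Anxa2, 7 for Anxa11 and 8 for Anxa13 (adjusted p up to 0.0551, 0.0807 and 0.0957), and in all 3 without line 1 with DMSO or line 5 with 4-OHT.

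Pairing each line with itself changed the calls of these spheroids. With line as a block 8 members were called, and the share of all genes called in that fit is not given here. Those gained were Anxa1 (log2 0.79 ± 0.12 SE, edgeR adjusted p = 0.00161), Anxa3 (1.19 ± 0.16 SE, 0.00112), Anxa5 (0.51 ± 0.09 SE, 0.00273) and Anxa8 (1.34 ± 0.18 SE, 0.00111), all higher, and Anxa4 (-0.44 ± 0.12 SE, 0.02), lower, while Anxa13 was no longer called. Without the block they had similar differences of 0.76, 1.03, 0.54, 1.32 and -0.41 and edgeR adjusted p-values of 0.292, 0.108, 0.289, 0.0908 and 0.344. Anxa1 was higher with 4-OHT in each of the 6 lines, from 98.1 to 167 CPM in line 1 and from 417 to 575 CPM in line 2, for example. In flox/+ spheroids, fitted without the block, log2 differences with 4-OHT were 0.47 for Anxa1, 0.34 for Anxa3, 0.21 for Anxa5 and 0.65 ± 0.58 SE for Anxa8 (edgeR adjusted p = 1.0 for each). The difference of the 4-OHT effects between genotypes was not called for Anxa1 (0.29, edgeR adjusted p = 0.927), Anxa5 (0.33, 0.859) or Anxa8 (0.66 ± 0.78 SE, 0.801), with or without the block. For Anxa3 it was 0.69 ± 0.65 SE (edgeR adjusted p = 0.724), and 0.77 ± 0.21 SE (0.021) with the block.

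Anxa13 fell with 4-OHT in some flox/flox spheroid lines and rose in others. Lines 1 and 3, those with the Paneth markers, went from 508 to 553 CPM and from 282 to 462 CPM, while lines 2, 4, 5 and 6 went from 550, 733, 706 and 451 CPM to 166, 154, 125 and 114 CPM. The pooled difference was -1.04 ± 0.35 SE (edgeR adjusted p = 0.043), and with the line block -1.33 ± 0.52 SE (edgeR adjusted p = 0.0925). Anxa11 fell from 106 to 165 CPM with DMSO to 82.9 to 118 CPM (log2 -0.39 ± 0.13 SE, edgeR adjusted p = 0.0386). Without lines 1 and 3 and their flox/+ counterparts, Anxa2 was no longer called (log2 0.57, edgeR adjusted p = 0.14), and Anxa3 (0.92, 0.0225) and Anxa8 (1.29, 0.0362) were.

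In flox/+ spheroids no member was called with 4-OHT, where 0.0% of genes were called by edgeR and 15 genes had an unadjusted p under 0.05. That fit did not pair the lines, and Eif4g2 itself was not called in it (log2 -0.81 ± 0.24 SE). The lack of calls therefore does not show that 4-OHT had no effect in these lines. Anxa6 had 19.8, 44.1, 36.2, 27.1 and 21.2 CPM with DMSO and 21.7, 47.6, 40.2, 31.7 and 22.2 CPM with 4-OHT, so each line stayed near its own level. With DMSO, edgeR called no member between flox/flox and flox/+ spheroids, where 0.0% of genes were called and 1084 had an unadjusted p under 0.05. Differences there were -1.30 ± 0.55 SE for Anxa8 (edgeR adjusted p = 0.651), 0.66 ± 0.37 SE for Anxa13 (0.744) and -0.55 ± 0.49 SE for Anxa1 (0.839). With 4-OHT Anxa6 alone was called, lower in flox/flox by 2.57 ± 0.46 SE on the log2 scale (edgeR adjusted p = 0.00115), where 10.5% of genes were called, 4.36% higher and 6.13% lower. Anxa2 (0.70 ± 0.26 SE, edgeR adjusted p = 0.0905) and Anxa8 (-0.63 ± 0.55 SE, 0.512) were not. The effect of 4-OHT on Anxa6 differed between genotypes by -2.46 ± 0.63 SE (edgeR adjusted p = 0.0513, where 1.62% of genes were called), and by -2.80 ± 0.48 SE with the line block (edgeR adjusted p = 0.00256). It was also called without flox/flox line 3 or 4 with 4-OHT (edgeR adjusted p = 0.00902 and 0.0323). For Anxa2 the same difference was 0.59 ± 0.37 SE (edgeR adjusted p = 0.524) and for Anxa13 -0.74 ± 0.52 SE (0.593), neither of them called. Without the lines high in Paneth markers that of Anxa13 was called (log2 -1.73, edgeR adjusted p = 0.0179). Between genotypes with 4-OHT, Anxa13 was then also called lower in flox/flox (-1.03, 0.0111, against -0.08 and 0.926 with all lines).

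**Figure D4:**
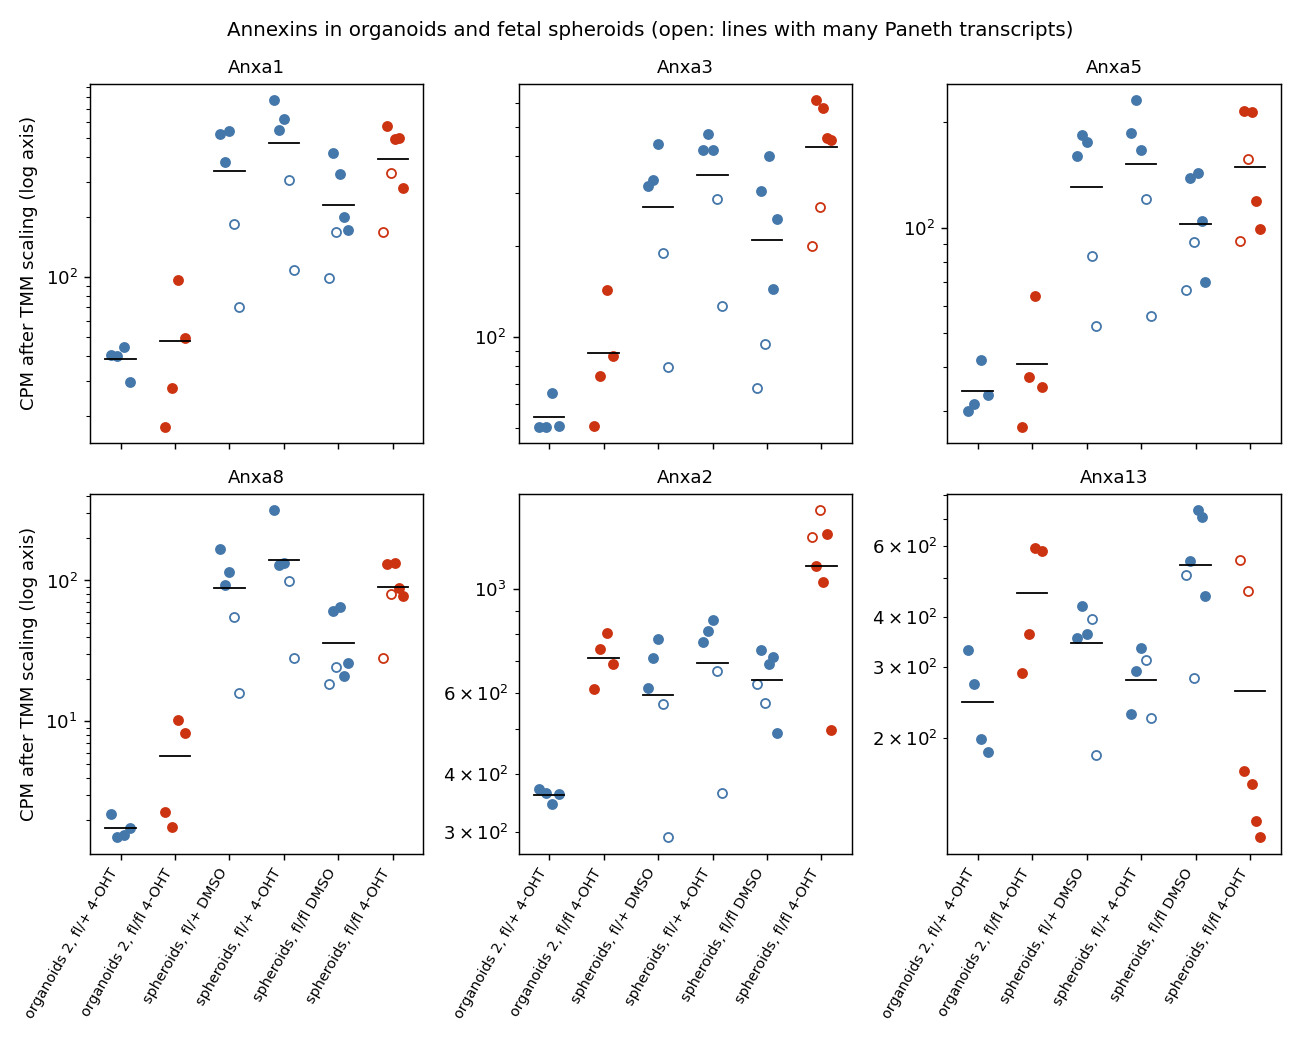
Anxa1, Anxa3, Anxa5, Anxa8, Anxa2 and Anxa13 in organoids of the second set and in fetal spheroids, in CPM after TMM scaling on a log axis, 1 point per library with a line at each group's mean, red for flox/flox with 4-OHT and blue for the rest. Open points are spheroid lines with over 1000 CPM of Paneth markers. With 4-OHT, flox/+ spheroids lie above flox/+ organoids in every library for Anxa1, Anxa3, Anxa5 and Anxa8, and Anxa13 splits the treated flox/flox spheroids by open and filled points.

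With A-485, Anxa1, Anxa2, Anxa3, Anxa5 and Anxa7 were higher than with DMSO at every dose, and their group means rose from each dose to the next. The lowest dose of 3 µM had 7 of 10 members called against DMSO, with 6 of them higher and 1 lower, where 19.2% of 13724 genes were called, 10.8% higher and 8.42% lower. For 5 µM the members called were 8, with 6 higher and 2 lower, where 49.6% of genes were called, 24.4% higher and 25.1% lower. The top dose of 10 µM also gave 8, of which 5 were higher and 3 lower, where 62.0% of genes were called, 29.4% higher and 32.6% lower. At all 3 doses the members' share was above that of all genes, least so at 10 µM. The 3 comparisons share their DMSO libraries. Summed over the family, group mean CPM went from 2274 with DMSO to 2452, 3694 and 4705. The share held by Anxa2, Anxa4 and Anxa13 went from 84.2 to 86.4% down to 64.2 to 67.0% at 10 µM.

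Anxa2 had 445, 480, 390 and 396 CPM in lines 1 to 4 with DMSO, 847, 624, 548 and 594 CPM at 3 µM, 1381, 1162, 1224 and 1274 CPM at 5 µM and 1986, 2174, 2264 and 1835 CPM at 10 µM. No 2 doses overlapped. Against DMSO the rise was 1.53-fold, 2.94-fold and 4.82-fold (log2 0.61 ± 0.12, 1.56 ± 0.13 and 2.27 ± 0.13 SE; edgeR adjusted p = 0.00215, 2.63e-08 and 1.15e-10). Each step was itself called, at 0.95 ± 0.12 SE from 3 to 5 µM (edgeR adjusted p = 4.33e-05) and 0.71 ± 0.12 SE from 5 to 10 µM (adjusted p = 0.000429). S100a10 rose beside it, by 0.62, 1.04 and 1.71 (edgeR adjusted p = 0.0228, 0.000134 and 2.8e-07).

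Anxa3 showed the largest rise of the family at 10 µM. It had 41.9, 34.1, 26.7 and 26.7 CPM with DMSO, 187, 165, 96.2 and 205 CPM at 3 µM, 301, 320, 226 and 393 CPM at 5 µM and 510, 613, 566 and 645 CPM at 10 µM. The groups did not overlap, and at 10 µM Anxa3 entered the top 3 members per kilobase, in place of Anxa13. The rise was 5.04-fold, 9.58-fold and 18-fold (log2 2.33 ± 0.22, 3.26 ± 0.23 and 4.17 ± 0.24 SE; edgeR adjusted p = 1.09e-06, 5.59e-09 and 1.25e-10). Both steps between doses were called (log2 0.93 and 0.91, edgeR adjusted p = 0.00346 and 0.00425).

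Anxa1 had 28.3, 25.2, 20.5 and 16.1 CPM with DMSO, 129, 110, 48.2 and 121 CPM at 3 µM, 212, 190, 93.5 and 211 CPM at 5 µM and 252, 289, 239 and 240 CPM at 10 µM. Line 3 lagged at the lower doses and had caught up at 10 µM. The log2 rise was 2.18 ± 0.30, 2.97 ± 0.30 and 3.50 ± 0.31 SE (edgeR adjusted p = 8.29e-05, 7.01e-07 and 5.19e-08). From 3 to 5 µM it was 0.79 ± 0.28 SE (edgeR adjusted p = 0.049, lost in 6 of 8 fits without a library), and from 5 to 10 µM 0.53 ± 0.28 SE (adjusted p = 0.218).

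Anxa5 and Anxa7 followed the same order. Anxa5 had 25.0 to 35.7 CPM with DMSO, 39.3 to 82.6 CPM at 3 µM, 101 to 153 CPM at 5 µM and 214 to 246 CPM at 10 µM, again without overlap. Its log2 rise was 1.07 ± 0.20, 2.10 ± 0.20 and 2.97 ± 0.20 SE (edgeR adjusted p = 0.000875, 1.5e-07 and 9.62e-10). Anxa7 had 137 to 159, 167 to 245, 320 to 394 and 434 to 518 CPM, with log2 rises of 0.38 ± 0.12, 1.19 ± 0.12 and 1.65 ± 0.12 SE (edgeR adjusted p = 0.0324, 3.39e-07 and 2.17e-09). Both steps between doses were called for Anxa5 (log2 1.03 ± 0.19 and 0.87 ± 0.19 SE, edgeR adjusted p = 0.000824 and 0.00289) and for Anxa7 (0.81 ± 0.12 and 0.47 ± 0.12 SE, 0.000114 and 0.00873). The call of Anxa7 at 3 µM was lost with lines as a block (edgeR adjusted p = 0.0539) and in 6 of 8 fits without a library (up to 0.137).

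Anxa13 reversed between 5 and 10 µM. It had 300.2, 381, 265 and 254 CPM with DMSO, 312, 348, 332 and 333 CPM at 3 µM, 382, 454, 487 and 373 CPM at 5 µM and 78.9, 77.8, 80.5 and 68.7 CPM at 10 µM. Every line at 10 µM was far below all other libraries of the A-485 set. The log2 difference from DMSO was 0.14 ± 0.12 (not called, edgeR adjusted p = 0.466), 0.50 ± 0.12 (0.00247) and -1.98 ± 0.13 SE (4.12e-10), from 3 to 5 µM it was 0.36 ± 0.12 SE (0.0398), and from 5 to 10 µM it was -2.47 ± 0.13 SE (7.55e-10). The enterocyte markers went from 6093 to 11748 CPM with DMSO to 2454 to 5211 CPM at 5 µM and 574 to 1043 CPM at 10 µM. Their part in the Anxa13 decrease was not tested.

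**Figure D5:**
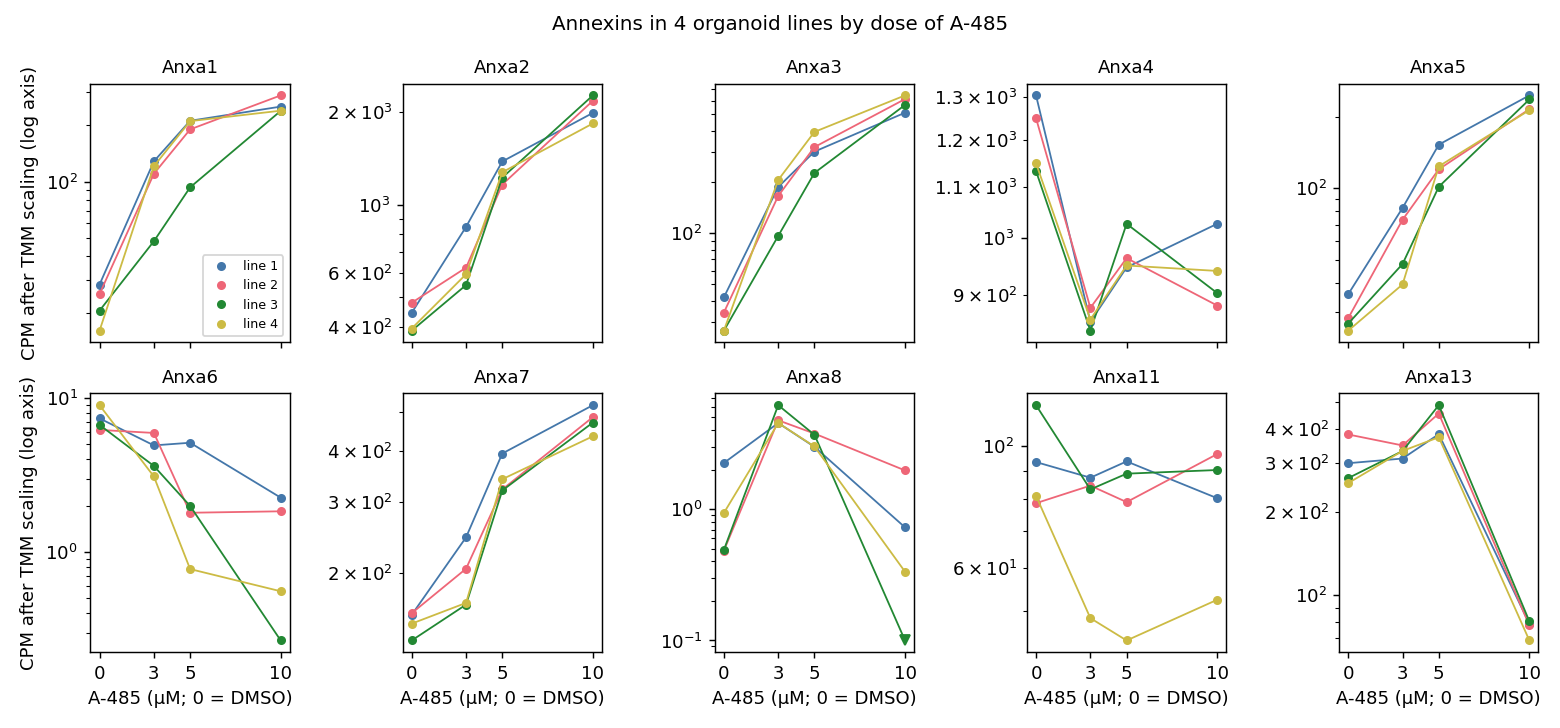
Annexin levels in 4 organoid lines against the dose of A-485 in µM (0 is DMSO), in CPM after TMM scaling on a log axis, 1 point per library and 1 colour per line, with the points of a line joined. Anxa1, Anxa2, Anxa3, Anxa5 and Anxa7 climb with dose, and Anxa13 drops at 10 µM. The group means of Anxa6 descend with dose, though not every line does at each step. A triangle placed at 0.1 CPM marks the Anxa8 library with 0 reads.

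Anxa8 had its highest group mean at the lowest dose, though the difference between 5 and 3 µM was not called (log2 -0.57 ± 0.68 SE, edgeR adjusted p = 0.587). It had 2.25, 0.483, 0.489 and 0.936 CPM with DMSO, 4.54, 4.76, 6.20 and 4.53 CPM at 3 µM, 2.99, 3.77, 3.69 and 3.00 CPM at 5 µM and 0.727, 1.97, 0 and 0.334 CPM at 10 µM. The 3 and 5 µM groups lay above DMSO without overlap, and the 10 µM group lay within its range or below. These are few reads, at most 72 per library, and edgeR called the rise at 3 µM (log2 2.25 ± 0.72 SE, adjusted p = 0.0363) and not that at 5 µM (1.68 ± 0.72 SE, 0.061). The call at 3 µM was lost in 6 of 8 fits without a library (edgeR adjusted p up to 0.105). With lines as a block the 5 µM rise was called (log2 1.92, edgeR adjusted p = 0.0205), as was the fall from 5 to 10 µM (-2.65, 0.0334, against -2.11 and 0.052 without it).

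Anxa6 had lower group means at each higher dose. It had 7.37, 6.20, 6.69 and 8.97 CPM with DMSO, 4.92, 5.92, 3.62 and 3.09 CPM at 3 µM, 5.12, 1.80, 1.99 and 0.775 CPM at 5 µM and 2.25, 1.84, 0.267 and 0.557 CPM at 10 µM. All treated libraries lay under all DMSO libraries. The log2 difference was -0.73 ± 0.54 (edgeR adjusted p = 0.38), -1.57 ± 0.56 (0.0256) and -2.55 ± 0.58 SE (0.000965), and the call at 5 µM was lost in 4 of 8 fits without a library. Neither step between doses was called (log2 -0.84 ± 0.55 and -0.98 ± 0.58 SE, edgeR adjusted p = 0.3 and 0.275).

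Anxa4 was lower at each dose by a small amount, with 1133 to 1305 CPM in DMSO and 842 to 879, 947 to 1027 and 882 to 1027 CPM in treated lines. The groups did not overlap with DMSO, and log2 differences were -0.50 ± 0.08, -0.32 ± 0.08 and -0.37 ± 0.08 SE (edgeR adjusted p = 0.000283, 0.00298 and 0.000572). Anxa11 was not called at any dose (log2 -0.29, -0.28 and -0.22). From 3 to 5 µM 6 of 10 members were called, all higher, where 24.5% of genes were called, 11.5% higher and 13.0% lower. From 5 to 10 µM 5 were called (4 higher, 1 lower), where 18.9% were (6.44% higher, 12.4% lower). Eif4g2 itself did not pass the test at any dose (log2 0.16, 0.03 and 0.20, edgeR adjusted p = 0.417, 0.86 and 0.181).

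Other cell markers moved with the dose as well. Stem cell markers summed to 6766 to 8025 CPM with DMSO and 119 to 187 CPM at 10 µM, and Paneth markers to 4521 to 6748 and 23.2 to 43.1 CPM. Immune markers stayed at or under 8.68 CPM and stromal markers at or under 13.7 CPM. The part of these cell types in the annexin differences was not tested.

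The known partners of annexins were followed as a list of 20 genes, which includes S100 proteins, plasminogen system genes, formyl peptide receptors, the scaffold Ahnak, repair proteins and calcium-binding ligands. With A-485, 11 of 14 tested partners were higher at each dose, where 10.8%, 24.4% and 29.4% of all genes were. The partners lower were 0, 2 and 2, where 8.42%, 25.1% and 32.6% of all genes were. In flox/+ spheroids against organoids 12 of 14 were higher (25.1% of all genes) and 0 lower (22.8%). In the first organoid set 8 of 14 were higher (18.2%) and 1 lower (17.2%). In crypts 5 of 15 were higher and 2 lower for Rosa26(CreER), where 8.63% of all genes were higher and 11.6% lower. For Vil1(CreER) crypts 5 of 14 were higher and 2 lower, where 11.6% and 17.7% of all genes were. In Rosa26(CreER) villi 1 of 15 was higher (15.0% of all genes) and 2 lower (18.2%), and in Vil1(CreER) villi 6 of 13 higher (20.9%) and 2 lower (21.6%). Flox/flox spheroids with 4-OHT against DMSO had 4 of 15 higher (9.01%) and 1 lower (10.0%). Between spheroid genotypes with 4-OHT 1 of 15 was higher (4.36%) and 1 lower (6.13%). Flox/flox organoids of the second set had 9 of 14 higher against flox/+ (22.6%) and 8 against CreER-only (21.9%). In each of these 1 was lower (24.3% and 23.5%). Flox/flox spheroids against organoids had 9 of 14 higher (15.2%) and 0 lower (9.45%). Of the formyl peptide receptors, through which Anxa1 signals, Fpr2 and Fpr3 had 0 reads in all libraries of every culture group, and Fpr1 in all culture groups but the spheroids with DMSO.

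S100a6, S100a10 and S100a11 are S100 proteins that bind annexin tails. S100a6 was higher by 3.72, 4.64 and 5.24 on the log2 scale with rising A-485 (edgeR adjusted p = 2.59e-08, 5.26e-10 and 4.74e-11), and by 5.99 ± 0.21 SE in Vil1(CreER) crypts (adjusted p = 1.17e-05). S100a11, the Anxa1 partner, was higher by 1.52, 2.29 and 3.00 (edgeR adjusted p = 5.08e-06, 9.77e-09 and 1.5e-10) and by 2.38 ± 0.11 SE in Vil1(CreER) crypts (adjusted p = 1.72e-05). In the first organoid set S100a10 was not called (log2 0.33 ± 0.13 SE, edgeR adjusted p = 0.0807) although Anxa2 was. The cytosolic phospholipase gene Pla2g4a, whose product annexins can inhibit, was lower in the crypts of both drivers, in both organoid sets and at 5 and 10 µM A-485.

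Across the 21 group means, the genes most like each member were found by Pearson's r of log2 CPM among 10844 genes. The points share tables, libraries and lines, so r is a description only. Anxa1 was nearest to Thsd4 (r = 0.982), Wwtr1 (0.979) and Msln (0.978). Anxa2 was nearest to Acot9 (0.961) and Ahnak (0.953), Anxa3 to Hk1 (0.977) and S100a14 (0.976), and Anxa5 to Cav2 (0.977) and Hpcal4 (0.973). Anxa7 was nearest to Asah1 (0.966), and S100a11 (0.962) was also among its closest. Anxa6 had its nearest genes at lower values, with Pik3ap1 (0.862) among them, as had Anxa13, with Slc5a6 (0.877) and Ankrd37 (0.876). Anxa4, Anxa8 and Anxa11 were nearest to Hbs1l (0.938), Arl4c (0.943) and Tbc1d17 (0.918).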

How the data were processed

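Bulk RNA-seq libraries of mouse intestinal crypts, villi, organoids and fetal spheroids were made with a kit that marks strand, per the labels' protocols. The values are whole-number read counts for each gene, in 4 tables as deposited by the authors, with no normalization. HISAT2 2.0.5 and the builds GRCm38 and mm10 are named in the submitters' processing notes. The counting program, its annotation and its use of strand are not given in the sources used here, so reads of an annexin and of an overlapping antisense gene may not be separated.

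Counts were tested with edgeR 4.0.16 in R 4.3.3 (filterByExpr by group, TMM, robust quasi-likelihood F-test), with Benjamini-Hochberg adjustment over all genes tested and calls at adjusted p under 0.05. Tissue, first organoid set and organoid-against-spheroid comparisons of 2 groups were fitted on those groups. Sets with shared controls or an interaction were fitted together. CPM are TMM-scaled within each table. No deposited column of sample values was left unused. The script was tested on simulated data.

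The annexin members, marker lists and partner list were chosen with earlier results of these data known. A member's log2 change and adjusted p were given where it passed the test or its log2 change was at least 0.5 in size, with the SE except where several members are listed together. Values of some other members are added so that each is accounted for. Likeness was ranked over genes with a mean of at least 5 CPM over the 21 groups. Some of the genes ranked there are not reported here.

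Alternatives were DESeq2 1.42.0 (size factors, Wald test), no filter on low counts, another set of groups in the fit, a covariate for Y-linked reads, a block for replicate, line or animal, and leaving out each library. Leaving out libraries with over 1000 CPM of stromal or Paneth markers was chosen after seeing the data. Deviations of libraries from the same line correlated in the first organoid set (r from 0.304 to 0.489), the flox/flox spheroids (0.361 to 0.772) and the flox/+ spheroids (0.614 to 0.848). Lines of the A-485 set (0.0478 to 0.332) and the crypts and villi of an animal (0.00186 to 0.166 in Rosa26(CreER), 0.0491 to 0.292 in Vil1(CreER) mice) were paired by their names in the labels. No 2 libraries agreed within counting noise, the lowest chi-square per degree of freedom being 5.84.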

Additional observations from a re-analysis of the deposited data

Results flagged for a closer look

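In 11 of 175 groups of member values a library stood apart from the rest by Dixon's test at the 95% level, which chance alone does in about 1 of 20 groups. In Rosa26(CreER) tissue these were Anxa6 in heterozygous villi (replicate 3 at 16.9 CPM, next 6.68), Anxa8 in heterozygous crypts (replicate 3 at 18.4 CPM, next 5.02, a library with over 1000 CPM of stromal markers) and Anxa13 in heterozygous villi (replicate 4 at 218 CPM, next 190). In Vil1(CreER) villi they were Anxa5 in heterozygous replicate 4 (7.13 CPM, next 10.7), Anxa6 in heterozygous replicate 1 (12.2 CPM, next 10.3) and Anxa6 in homozygous replicate 1 (7.16 CPM, next 3.10). In that last library the immune markers summed to 1489 CPM, against 166, 184, 756, 1124 and 1634 CPM in homozygous replicates 2 to 6. Their part in the Anxa6 values was not tested.

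Among cultures, A-485 at 3 µM had line 3 high in Anxa8 (6.20 CPM, next 4.76) and line 4 low in Anxa11 (48.5 CPM, next 83.3). In the second organoid set, Anxa3 was high in flox/+ line 3 (65.2 CPM, next 50.5) and Anxa6 in CreER-only line 2 (14.6 CPM, next 10.5). In flox/+ spheroids with DMSO, Anxa13 was low in line 5 (182 CPM, next 355), a line high in Paneth markers.

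The effect of genotype differed between villi and crypts by edgeR's test of the difference for 6 values. In Rosa26(CreER) mice it did for Anxa3 (log2 -2.19 ± 0.60 SE, edgeR adjusted p = 0.0277) and Anxa6 (-2.32 ± 0.67 SE, 0.0355). In Vil1(CreER) mice it did for Anxa2 (-1.38 ± 0.23 SE, edgeR adjusted p = 0.00183), Anxa3 (-2.86 ± 0.47 SE, 0.0016), Anxa5 (-1.55 ± 0.37 SE, 0.0114) and Anxa6 (-2.46 ± 0.67 SE, 0.0229).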

How the results depend on the processing

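Over 102 called member values, 1450 alternative values kept direction and call in 1300 and direction alone in 150, and none changed sign. A single fit can give values for several members. Over the 145 member values that passed the test or were at least 0.5 in size on the log2 scale, none of 2176 alternatives changed sign. These values were chosen by call or size, and most alternatives left out a single library. A change of sign was therefore unlikely from the start. Replacing TMM by DESeq2's size factors moved the median of all genes by at most 0.04 on the log2 scale. Numbers of members called that moved by over 1.5 times follow, without the shares of all genes called in those fits. The Rosa26(CreER) crypts went from 4 to 2 with the covariate for Y-linked reads and 1 without the stromal-high libraries, and the villi from 2 to 1 with the covariate. Villi against crypts of these mice went from 7 to 4 without the filter, and the difference of genotype effects from 2 to 4 with DESeq2, 0 without the filter and 0 with the animal block. Flox/+ against CreER-only organoids went from 0 to 1 with DESeq2 and 1 without the filter. In flox/flox spheroids 4-OHT gave 4, and 2 without the filter, 2 when only both groups were fitted and 8 with the line block. Flox/flox against flox/+ spheroids with 4-OHT went from 1 to 2 with size factors, 2 with DESeq2, 0 with the replicate block and 2 without the Paneth-high lines. The difference of 4-OHT effects went from 0 to 1, 1, 2 and 1 in the same order of settings. Flox/flox spheroids against organoids went from 5 to 8 without the Paneth-high lines.

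Leaving out 1 library gave 1 to 7 members called in Rosa26(CreER) crypts (1 without heterozygous replicate 2 or homozygous replicate 3, 7 without homozygous replicate 5), 1 to 3 in villi, 6 to 7 between villi and crypts and 0 to 4 for the difference of effects. In Vil1(CreER) mice the ranges were 4 to 7, 4 to 5, 5 to 6 and 3 to 4. The first organoid set gave 6 to 9, and the second 3 to 6 against flox/+, 4 to 5 against CreER-only and 0 for flox/+ against CreER-only. In spheroids it was 1 to 4 with 4-OHT in flox/flox (1 without line 1 with DMSO or line 5 with 4-OHT), 0 in flox/+, 1 to 2 between genotypes with 4-OHT, 0 with DMSO and 0 to 1 for the difference of effects. Spheroids against organoids gave 8 to 9 in flox/+ and 4 to 6 in flox/flox. A-485 against DMSO gave 5 to 7, 7 to 9 and 8 with rising dose, and the steps between doses 4 to 5 and 5 to 6. From 3 to 5 µM, Anxa13 lost its edgeR call in 5 of 8 such fits (adjusted p up to 0.132). The shares of all genes called in fits that left out a library are not given here.

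Where libraries share only a replicate number, a replicate block ended the edgeR calls of Anxa11 in Rosa26(CreER) crypts (adjusted p = 0.0832), Anxa13 in flox/flox against flox/+ organoids (0.13), Anxa6 between spheroid genotypes with 4-OHT (0.0758) and Anxa6 in flox/flox spheroids against organoids (0.113). With it edgeR called Anxa1 in Rosa26(CreER) crypts (log2 1.56, adjusted p = 0.0393), Anxa11 in Vil1(CreER) villi (-0.55, 0.00738), Anxa3 in flox/flox against flox/+ organoids (0.0429) and Anxa2 in flox/flox spheroids against organoids (0.77, 0.0155). In Rosa26(CreER) crypts same-numbered libraries correlated at r from 0.037 to 0.587. Depth limits Anxa8 in villi, at 0 to 9 reads per heterozygous Rosa26(CreER) library, and it was not tested by genotype there. The cause of each change was not tested.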

Other observations

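Anxa10 and Anxa9 are annexins outside the 10 members and were chosen here after their values were seen. Anxa10, best known from stomach, had a mean of 0.0237 CPM in heterozygous and 7.07 CPM in homozygous Vil1(CreER) crypts (edgeR adjusted p = 0.0091), and of 0.0312 and 8.23 CPM in villi (edgeR adjusted p = 0.00132). In homozygous libraries it ran from 1.43 to 17.9 CPM in crypts and from 0.918 to 28.9 CPM in villi. Homozygous Rosa26(CreER) villi were uneven, from 0.0374 to 92.6 CPM (edgeR adjusted p = 0.033). In organoids Anxa10 rose from 36.5 to 112 CPM with 4-OHT in the first set (log2 1.61 ± 0.14 SE, edgeR adjusted p = 0.000475). In the second set the flox/flox lines had a mean of 84.9 CPM, against 26.6 CPM for flox/+ lines and 41.0 CPM where only CreER was carried (log2 1.67 ± 0.26 SE against flox/+, edgeR adjusted p = 0.000385).

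With A-485, Anxa10 had means of 22.9 CPM with DMSO, 115 CPM at 3 µM, 116 CPM at 5 µM and 31.5 CPM at 10 µM. It was higher at 3 and 5 µM (log2 2.32 ± 0.32 and 2.34 ± 0.32 SE, edgeR adjusted p = 9.84e-05 and 1.62e-05) and not called at 10 µM (log2 0.46 ± 0.31 SE, edgeR adjusted p = 0.214). Between 5 and 10 µM it fell by 1.88 ± 0.31 SE (edgeR adjusted p = 0.000383). It was lower in flox/flox spheroids than in flox/flox organoids (log2 -1.53 ± 0.26 SE, edgeR adjusted p = 0.00216). Anxa9 stayed between group means of 0.431 and 4.87 CPM, and was higher with 4-OHT in the first organoid set (log2 0.67 ± 0.19 SE, edgeR adjusted p = 0.0281) and in flox/flox against CreER-only lines (1.15 ± 0.36 SE, 0.0169).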
